A study of Mus musculus with 6 samples.

Results

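The genes examined here drive and mark the cell division cycle. They are 46 genes listed by name in 3 phases: 14 of G1 and entry into S phase (G1/S), 12 of DNA replication and 20 of mitosis. Their members on the array were all probe sets (groups of short probes read together as 1 value) whose annotation names only a listed gene. This gave 107 probe sets of 45101, for 45 of the 46 genes, and Ccnb1 was not analysed here. Of these probe sets 34 belong to G1/S genes, 34 to replication genes and 39 to the remaining 19 mitosis genes. Each gene was read from its brightest probe set by mean over all arrays, as were all 18193 named genes.

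A resting cell enters the cycle when D-type cyclins with Cdk4 and Cdk6, and then E-type cyclins with Cdk2, inactivate the retinoblastoma protein and free E2F factors to switch on genes of DNA synthesis. Inhibitors of the Cip/Kip family (Cdkn1a, Cdkn1b) and of the Ink4 family (Cdkn2a, Cdkn2b, Cdkn2c) hold these kinases back. Cdc6 and Cdt1 load the Mcm helicase on replication origins, and cyclin A, cyclin B and Cdk1 with the Aurora and Polo kinases carry the cell through mitosis. Transcripts of the mitosis genes rise late in the cycle and are scarce in resting cells, so their level in bulk RNA moves with the share of dividing cells. Fibroblasts of undisturbed adult dermis divide rarely.

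RNA was measured in dermal fibroblasts sorted by flow cytometry for PDGFRα, a growth factor receptor on the fibroblast surface, from ears of mice 4 months old that the labels give as male. Normal dermal fibroblasts (NDF, 3 arrays) came from normal ears of non-transgenic FVB/n mice, and cancer-associated fibroblasts (CAF, 3 arrays) from K14-HPV16 mice whose ears were visibly dysplastic. The K14 promoter drives the human papillomavirus 16 genes in basal keratinocytes, so the fibroblasts themselves are not the cells the transgene targets, and the skin passes through premalignant stages. The protocol names 15 mice per genotype and calls the arrays biological repetitions, without saying whether each was a separate pool, so p-values reflect only the spread among these arrays. RNA was amplified once before labelling. The series title sets the comparison in the context of early neoplasia and inflammation.

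Several arrays stood apart. CAF 3 correlated with the other arrays at 0.916 to 0.938 over the 18193 named genes, and all other pairs at 0.965 or more. Xist, the RNA of the inactive X chromosome of female cells, read 10.39 on NDF 1, 9.09 on CAF 1 and 10.70 on CAF 2, against 4.00 on NDF 2, 3.71 on NDF 3 and 4.64 on CAF 3, although the labels give all mice as male. The Y-linked Eif2s3y read between 9.89 and 11.21 and Kdm5d between 7.42 and 8.86 on all 6 arrays. The 3 arrays with high Xist thus carried both kinds of transcript. Why was not tested, and results are also given within the Xist-high arrays (NDF 1 against CAF 1 and CAF 2) and the Xist-low arrays (NDF 2 and NDF 3 against CAF 3). Pdgfra, the sort marker, read 12.30 to 12.66 on all arrays.

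The promoters of these genes carry short sequence elements that differ by phase, and they are shown because the mitosis genes varied together from array to array, as described further on. Promoters of 250 bases before to 50 after each gene's start came from RefSeq (GRCm38.p6), which gave 41 promoters for 36 of the 45 genes; Ccnd1, Ccnd2, Ccne2, Mcm4, Ccna2, Cdc25c, Aurkb, Kif20a and Foxm1 are named only. Both strands were searched for the CHR (cell cycle genes homology region, TTTGAA or TTCGAA), through which the DREAM complex represses late cell cycle genes in resting cells. The CCAAT box (CCAAT), bound by NF-Y, and E2F sites (TTTGGCGC, TTTCGCGC, TTTCCCGC, TTTGCCGC, TTTGGCGG or TTTCCCGG) were searched in the same way. The upstream 250 bases of 3 mitosis genes with many such matches follow, then those of Mcm6, the replication gene with the largest difference, and of Birc5, the mitosis gene with the widest spread. Capitals mark the matches, and all are written 5′ to 3′ on the gene's strand. They lie at chr7:135716380-135716629 (Mki67, minus strand), chr9:70421555-70421804 (Ccnb2, minus), chr11:99024190-99024439 (Top2a, minus), chr1:128359706-128359955 (Mcm6, minus) and chr11:117848987-117849236 (Birc5, plus).
Mki67: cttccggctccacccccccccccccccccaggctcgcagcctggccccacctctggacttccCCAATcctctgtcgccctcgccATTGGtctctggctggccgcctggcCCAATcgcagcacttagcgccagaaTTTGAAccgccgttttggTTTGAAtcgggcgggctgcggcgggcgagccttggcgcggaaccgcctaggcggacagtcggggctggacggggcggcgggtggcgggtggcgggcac
Ccnb2: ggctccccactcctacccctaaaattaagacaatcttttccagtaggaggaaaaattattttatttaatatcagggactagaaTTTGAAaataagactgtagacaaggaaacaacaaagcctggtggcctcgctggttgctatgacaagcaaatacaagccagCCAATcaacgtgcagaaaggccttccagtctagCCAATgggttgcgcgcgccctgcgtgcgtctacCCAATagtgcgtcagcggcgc
Top2a: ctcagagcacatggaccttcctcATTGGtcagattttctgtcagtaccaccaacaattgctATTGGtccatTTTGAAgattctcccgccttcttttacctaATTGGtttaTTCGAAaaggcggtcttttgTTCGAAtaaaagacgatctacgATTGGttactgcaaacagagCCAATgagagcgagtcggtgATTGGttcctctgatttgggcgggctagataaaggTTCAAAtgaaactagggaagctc
Mcm6: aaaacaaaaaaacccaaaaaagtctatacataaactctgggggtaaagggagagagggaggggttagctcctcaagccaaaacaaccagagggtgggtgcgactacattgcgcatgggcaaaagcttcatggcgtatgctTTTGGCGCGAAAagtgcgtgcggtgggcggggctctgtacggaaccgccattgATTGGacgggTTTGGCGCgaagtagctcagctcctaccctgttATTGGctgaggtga
Birc5: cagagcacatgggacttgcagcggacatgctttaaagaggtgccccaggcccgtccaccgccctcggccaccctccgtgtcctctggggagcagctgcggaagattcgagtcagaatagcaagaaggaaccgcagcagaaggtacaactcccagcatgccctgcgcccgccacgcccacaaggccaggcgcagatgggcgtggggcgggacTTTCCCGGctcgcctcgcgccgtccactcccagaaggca

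A CHR match was present in 11 of 14 mitosis promoters, 2 of 12 replication promoters and 1 of 15 G1/S promoters, beside 19.2% of all 32851 promoters of that length. A CCAAT box was present in 12 of 14 mitosis promoters, 9 of 12 replication promoters and 5 of 15 G1/S promoters, beside 37.4% of all promoters. All 11 mitosis promoters with a CHR match also held a CCAAT box, a combination found in 7.52% of all promoters, and in no member promoter did a CHR match overlap a CCAAT match. An E2F match was present in 6 of 12 replication promoters, 2 of 14 mitosis promoters and 2 of 15 G1/S promoters, beside 3.98% of all promoters. In the sequences shown, Top2a held 4 CHR matches and 6 CCAAT boxes, Mcm6 held 3 E2F matches and 2 CCAAT boxes, and Birc5 held 1 E2F match alone. These are counts of letters, not of bound sites.

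None of the 45 cell cycle genes passed an adjusted p of 0.05 between CAF and NDF in either direction (limma, Benjamini-Hochberg over all genes), beside 0.517% of all genes. Of all genes 0.489% were called higher and 0.0275% lower in CAF. At an unadjusted p under 0.05 the members numbered 3 higher (Cdk2, Cdt1 and Mcm6) and 3 lower (Ccnd2, Cdkn1b and Cdkn2c), which is 13.3% of them, beside 4.93% of all genes higher, 4.02% lower and 8.95% in either direction. The 3 CAF arrays all lay above the 3 NDF arrays for Cdt1, Mcm3 and Mcm6, and all below for Ccnd2, Cdkn1b and Cdkn2c. Over all genes the groups did not overlap for 15.4%, with CAF above for 6.78% and below for 8.66%.

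The phases leaned in different directions, none of them far. The median difference, CAF minus NDF on the log2 scale, was -0.21 for the G1/S genes, 0.22 for the replication genes and 0.11 for the mitosis genes, beside -0.04 over all genes. Differences were positive for 5 of 14 G1/S genes, 10 of 12 replication genes and 11 of 19 mitosis genes, beside 44.5% of all genes. The 95% intervals were wide: their median half-width was 0.655 for G1/S, 0.847 for replication and 1.09 for mitosis, beside 0.598 for all genes. A log2 difference of 1 is a 2-fold change, so the typical mitosis interval reached more than 2-fold to each side of its estimate. In these bulk samples fewer cells of a type and less RNA per cell cannot be told apart.

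**Figure D1:**
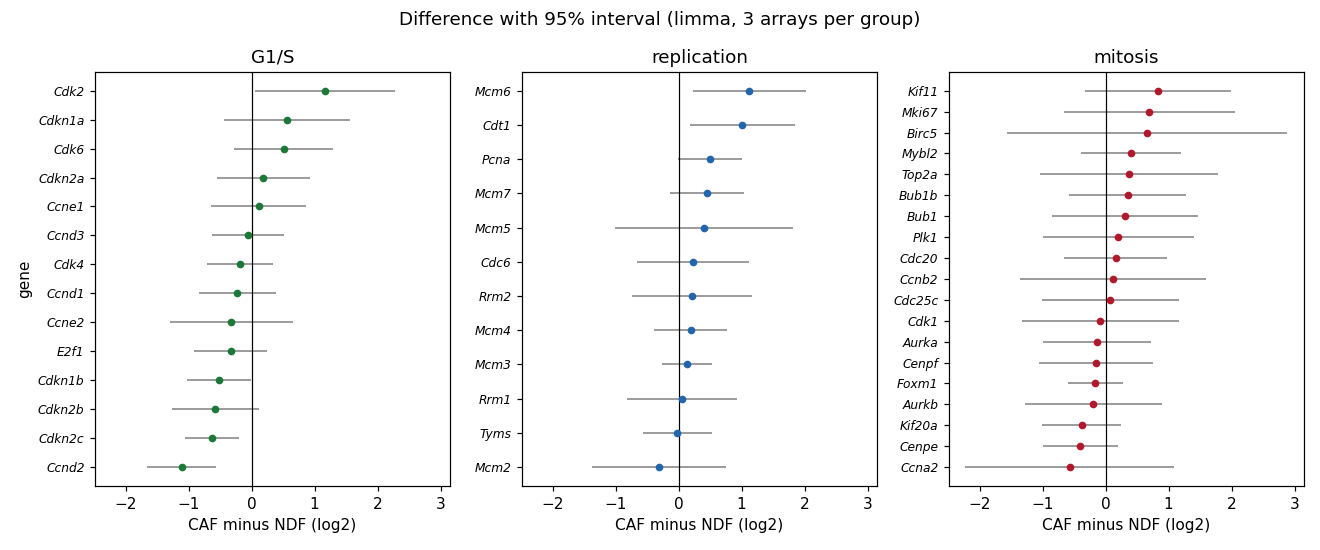
Difference between CAF and NDF (log2 units, x axis) for each of the 45 genes, by phase; points are estimates and lines 95% limma intervals, 3 arrays per group. The intervals of Ccnd2, Cdkn2c, Cdkn1b, Cdk2, Cdt1 and Mcm6 miss 0, and Birc5 has the widest at -1.56 to 2.89.

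Among the G1 cyclins, the regulatory partners of the G1 kinases, Ccnd2 had the lowest p of all 45 genes. Cyclin D2 read 11.24, 10.80 and 11.40 on NDF 1, 2 and 3 and 10.19, 9.76 and 10.14 on CAF 1, 2 and 3. The highest CAF array lay below the lowest NDF array. The difference was -1.11 (SE 0.23, 95% interval -1.66 to -0.56), a level 2.16-fold higher in NDF on this scale, with an adjusted p of 0.135 by limma, which misses the threshold. All 7 probe sets of Ccnd2 were lower in CAF, by -0.65 to -2.14, and 5 of them did not overlap between the groups; probe sets of a gene share the RNA and are not replicates. The difference was -1.06 without NDF 1, -1.29 without NDF 2, -0.99 without NDF 3, -1.26 within the Xist-high arrays and -0.96 within the Xist-low arrays. On their brightest probe sets the other D cyclins and the E cyclins differed by -0.32 to 0.11, with adjusted p of 0.896 or more by limma. A dimmer Ccnd3 probe set had all CAF arrays above all NDF arrays, with a difference of 0.59 (SE 0.20). The third Ccnd3 probe set differed by -0.11. Ccnd1 had differences below 0 in all 3 of its probe sets, from -0.78 to -0.23, and the one at -0.78 had all CAF arrays below all NDF arrays.

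On their brightest probe sets the G1 kinases split. Cdk2, the partner of cyclin E, read 6.31, 5.58 and 5.49 in NDF and 6.21, 6.71 and 7.95 in CAF, a difference of 1.17 (SE 0.47, adjusted p 0.533 by limma). CAF 1 lay below NDF 1, so the groups overlapped, and CAF 3 was the highest array. The other Cdk2 probe set was far dimmer and read 2.55 to 2.85 on all arrays, with a difference of -0.06. Cdk6, a partner of the D cyclins, read 6.54, 5.63 and 5.68 in NDF and 6.15, 6.28 and 6.93 in CAF (difference 0.51, SE 0.33). Its 2 dimmer probe sets went the other way, each with a difference of -0.11. Cdk4, the other partner of the D cyclins, differed by -0.18 (SE 0.22).

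Of the kinase inhibitors, Cdkn2c and Cdkn1b had all CAF arrays below all NDF arrays. Cdkn2c, an Ink4 inhibitor of Cdk4 and Cdk6, read 7.19, 7.41 and 7.14 in NDF and 6.64, 6.45 and 6.75 in CAF. Its difference was -0.63 (SE 0.18, adjusted p 0.305 by limma), with an SD of 0.143 in NDF and 0.153 in CAF. Cdkn1b, the Cip/Kip inhibitor p27 of resting cells, read 10.62, 10.94 and 11.04 in NDF and 10.41, 10.56 and 10.07 in CAF. The gap between the groups was narrow, from CAF 2 to NDF 1, and the difference was -0.52 (SE 0.21, adjusted p 0.547). The second Cdkn1b probe set had a difference of -0.14.

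The remaining inhibitors overlapped between the groups. Cdkn2b, an Ink4 gene induced by TGF-β, read 5.68, 5.61 and 5.28 in NDF and 5.52, 4.53 and 4.79 in CAF (difference -0.58, SE 0.29). Cdkn1a, the p53 target p21, read 9.73, 9.30 and 9.82 in NDF and 9.56, 9.84 and 11.12 in CAF (difference 0.55, SE 0.42). Its CAF mean was carried by CAF 3, and CAF 1 lay within the NDF range. Cdkn2a, which encodes p16 and p19Arf, read 3.36 to 4.52 over the 6 arrays, a low reading on this array, with a difference of 0.19 (SE 0.31). E2f1, the E2F activator of S phase genes, differed by -0.33 (SE 0.24).

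**Figure D2:**
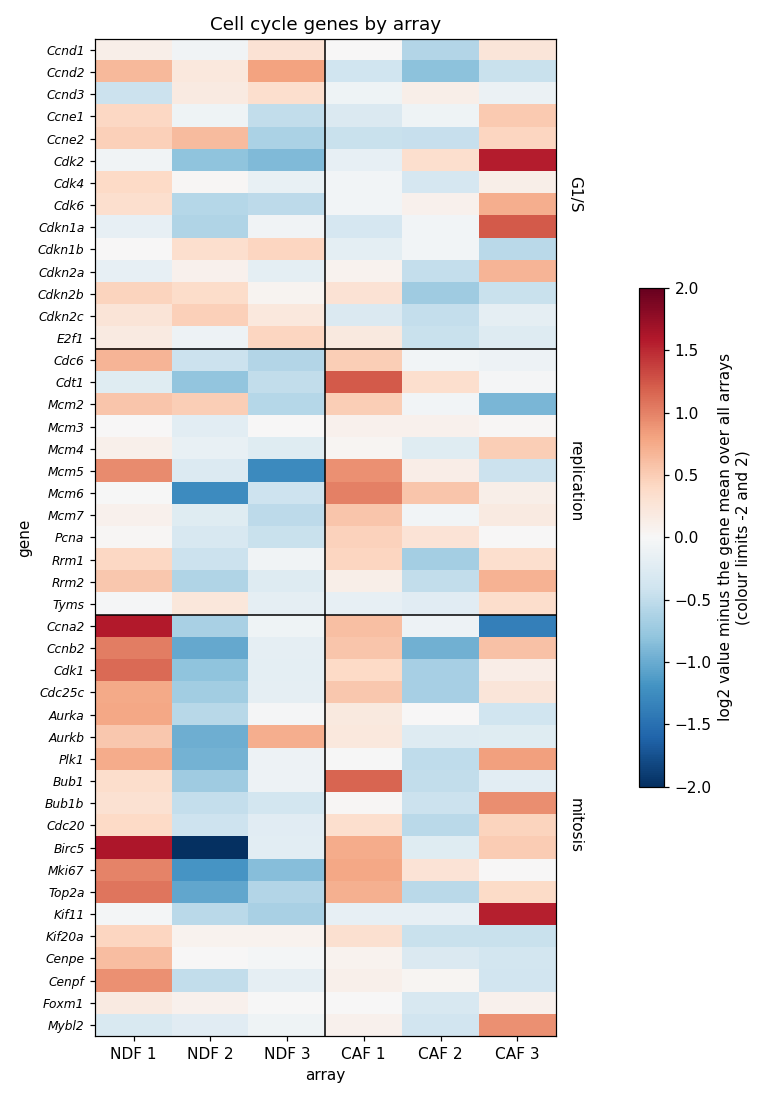
Log2 value of each gene on each array minus that gene's mean over the 6 arrays (colour, limits -2 and 2, red higher), genes in rows by phase and arrays in columns. Most mitosis genes are red on NDF 1 and blue on NDF 2, and Ccnd2 is red on the NDF arrays and blue on the CAF arrays.

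Among the replication genes, the helicase subunit gene Mcm6 and the loading factor gene Cdt1 had the largest differences. Mcm6, a subunit of the hexameric Mcm helicase, read 7.30, 6.06 and 6.90 in NDF and 8.32, 7.87 and 7.44 in CAF, a difference of 1.12 (SE 0.38, adjusted p 0.414 by limma). The lowest CAF array stood just above NDF 1, the highest of the NDF arrays. All 3 Mcm6 probe sets were higher in CAF, by 0.32 to 1.21, and 2 of them did not overlap. The difference was 0.80 within the Xist-high arrays and 0.96 within the Xist-low arrays. Cdt1, which loads the helicase on origins, read 5.73, 5.19 and 5.48 in NDF and 7.20, 6.30 and 5.94 in CAF, a difference of 1.01 (SE 0.35, adjusted p 0.429). Its other probe sets differed by 0.28 and 0.01, so the size rests on the brightest one.

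Other Mcm subunits differed less. Mcm3 read 8.21, 7.99 and 8.21 in NDF and 8.29, 8.29 and 8.23 in CAF, which do not overlap but differ by 0.13 (SE 0.17). Mcm2 read 5.99, 5.94 and 4.87 in NDF and 5.93, 5.39 and 4.53 in CAF, the largest negative difference of the phase at -0.32 (SE 0.45). NDF 3 and CAF 3 were its low arrays. The dimmer Mcm2 probe set went the other way, at 4.49, 4.34 and 4.23 in NDF and 5.01, 4.31 and 5.69 in CAF, a difference of 0.65 (SE 0.35). Mcm4, Mcm5 and Mcm7 differed by 0.19, 0.40 and 0.45, and Cdc6, the other loading factor, by 0.22, each with a 95% interval that spans 0. Mcm5 had the widest NDF range of the replication genes, from 4.25 on NDF 3 to 6.46 on NDF 1.

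The clamp and the enzymes of nucleotide supply overlapped between the groups. Pcna, the sliding clamp of the replication fork, read 9.99, 9.64 and 9.52 in NDF and 10.42, 10.24 and 9.97 in CAF, a difference of 0.49 (SE 0.21, adjusted p 0.579 by limma). CAF 3 lay just under NDF 1, which alone kept the groups from parting. Rrm1, the large subunit of ribonucleotide reductase, read 7.93, 7.10 and 7.46 in NDF and 7.95, 6.84 and 7.86 in CAF (difference 0.05, SE 0.36). Tyms, thymidylate synthase, read 4.30, 4.55 and 4.15 in NDF and 4.17, 4.09 and 4.68 in CAF (difference -0.02, SE 0.23). Rrm2, the regulated small subunit of the reductase, differed by 0.22 (SE 0.40).

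**Figure D3:**
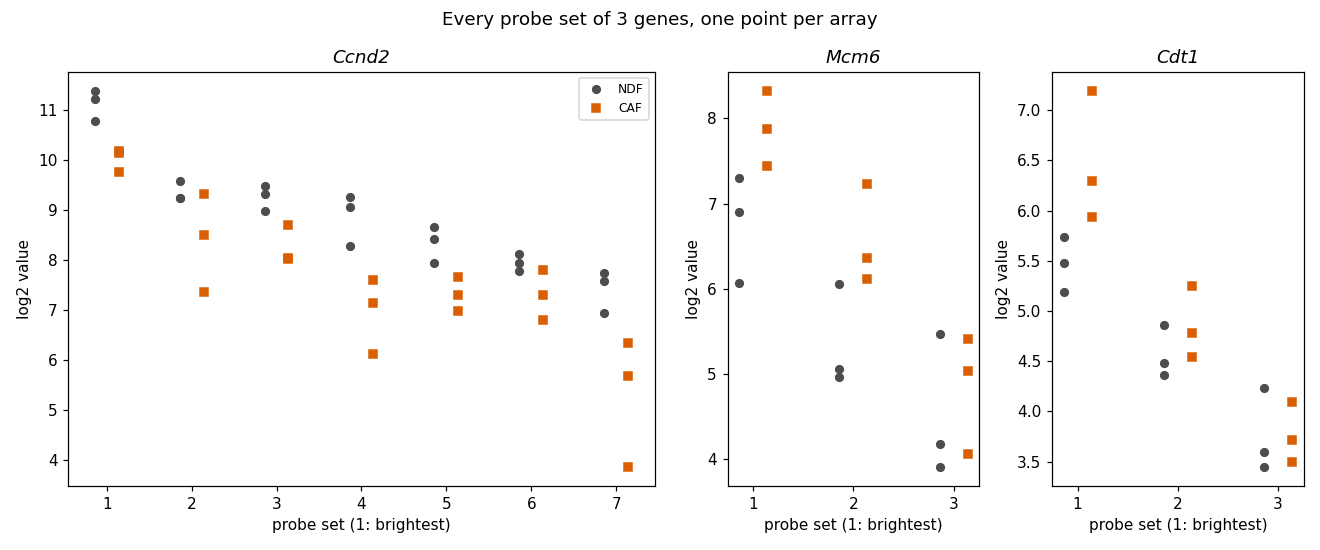
Log2 value (y axis) on each NDF (grey circles) and CAF (orange squares) array for every probe set of Ccnd2, Mcm6 and Cdt1, ordered from the brightest (1) on the x axis. All 7 Ccnd2 probe sets have lower CAF means, by -0.65 to -2.14, whereas Cdt1 differs by 1.01 on its brightest probe set and by 0.28 and 0.01 on the others.

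No mitosis gene came near the threshold: the lowest adjusted p was 0.735 (Kif11, limma). On the brightest probe sets the groups overlapped for every mitosis gene. A dimmer Foxm1 probe set had all CAF arrays below all NDF arrays, with a difference of -0.16. The mitotic cyclins and kinases stood higher on NDF 1 than on NDF 2 for all 7 measured members. Ccna2, cyclin A2, read 9.21, 6.98 and 7.53 in NDF and 8.23, 7.52 and 6.25 in CAF, the most negative difference of the phase at -0.57 (SE 0.70). Its other probe set differed by 0.37, the opposite sign. Ccnb2, a B-type cyclin, read 6.69, 4.65 and 5.49 in NDF and 6.22, 4.71 and 6.25 in CAF, a difference of 0.11 (SE 0.62). In both groups the second array was low, at nearly the same reading.

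The kinases gave the same picture. Cdk1, the mitotic cyclin-dependent kinase, read 7.82, 5.88 and 6.50 in NDF and 7.09, 6.03 and 6.83 in CAF (difference -0.08, SE 0.53). Plk1, a Polo kinase of the spindle poles and kinetochores, read 5.23, 3.55 and 4.40 in NDF and 4.49, 3.99 and 5.32 in CAF (difference 0.20, SE 0.50). Aurkb, the kinase of the chromosomal passenger complex, read 4.76, 3.23 and 4.93 in NDF and 4.42, 3.96 and 3.96 in CAF (difference -0.19, SE 0.46). For each of them the NDF arrays spanned a wider range than the difference between the group means. Aurka, the spindle pole kinase, and Cdc25c, the phosphatase that activates Cdk1, differed by -0.14 and 0.08.

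Of the genes of the spindle checkpoint and mitotic exit, Birc5 varied most. Birc5, which encodes survivin of the chromosomal passenger complex, read 10.09, 6.06 and 8.25 in NDF and 9.20, 8.22 and 8.96 in CAF. All 3 CAF readings lay between those of NDF 2 and NDF 1. The NDF range of 4.03 is 16.3-fold, and the NDF SD of 2.02 ranked 6 of 18193 genes. The group difference was 0.66 (SE 0.94), 1.64 without NDF 1 and -0.38 without NDF 2. The checkpoint kinases Bub1 and Bub1b and the activator of the anaphase-promoting complex, Cdc20, differed by 0.31, 0.35 and 0.16.

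Among genes of chromosomes and spindle, Mki67, the proliferation marker Ki-67, read 8.18, 5.997 and 6.32 in NDF and 7.95, 7.45 and 7.18 in CAF. The CAF arrays lay above NDF 2 and NDF 3 and below NDF 1. Its difference was 0.70 (SE 0.57, adjusted p 0.834 by limma), and 1.37 without NDF 1, which moves the value by over 1.5 times. Top2a, the topoisomerase that untangles chromosomes, read 7.83, 5.71 and 6.17 in NDF and 7.46, 6.21 and 7.14 in CAF (difference 0.37, SE 0.59). Kif11, the spindle motor Eg5, read 4.35, 3.85 and 3.74 in NDF and 4.24, 4.23 and 5.95 in CAF (difference 0.83, SE 0.49), with CAF 3 alone far above the rest. Its dimmer probe sets did not share that peak and differed by 0.31 and -0.07. They read 4.97 and 3.72 on CAF 3, against 4.92 and 4.48 on NDF 1.

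Of the remaining mitosis genes, Cenpe, a kinetochore motor, read 5.01, 4.39 and 4.34 in NDF and 4.45, 4.09 and 4.01 in CAF (difference -0.40, SE 0.25), while its dimmer probe set differed by 0.77 (SE 0.64). Kif20a, a motor of cytokinesis, read 5.91, 5.56 and 5.56 in NDF and 5.80, 5.04 and 5.04 in CAF (difference -0.38, SE 0.27). On the brightest probe set of both genes, CAF 1 lay within the NDF range. Cenpf, another kinetochore protein, differed by -0.16 (SE 0.38). The mitotic transcription factors Foxm1 and Mybl2 differed by -0.16 (SE 0.19) and 0.41 (SE 0.34), and Foxm1 had the lowest NDF SD of the mitosis genes at 0.0924.

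**Figure D4:**
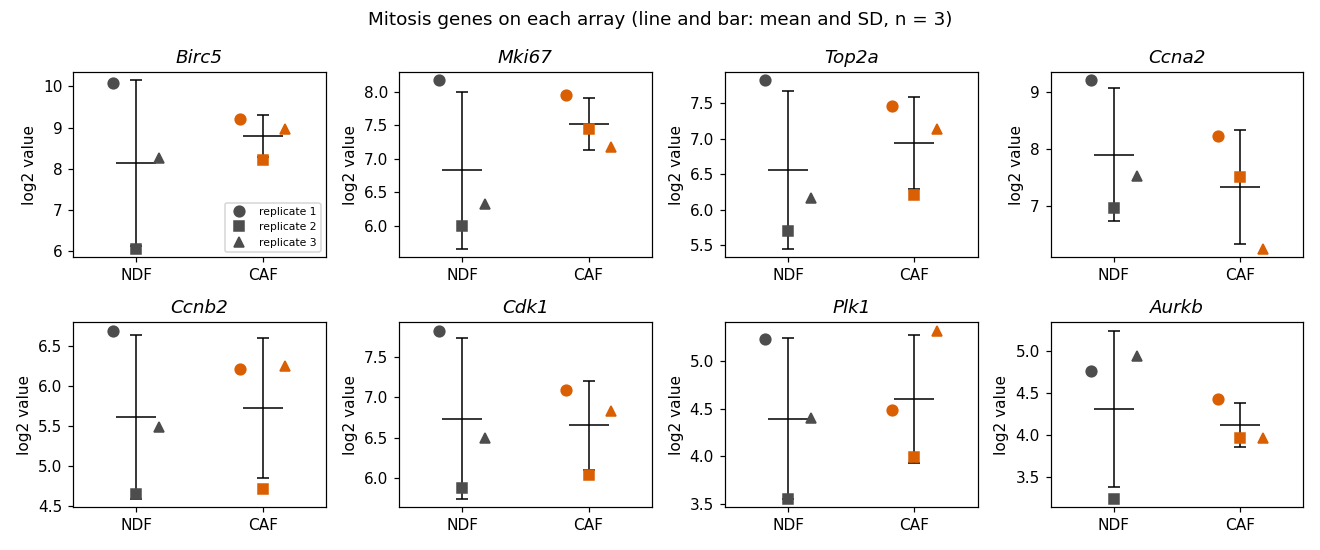
Log2 value (y axis) of 8 mitosis genes on each NDF (grey) and CAF (orange) array, with symbols for the replicate number and lines and bars for the mean and SD (n = 3). NDF 1 is the highest NDF array for 7 of these genes, Aurkb being the exception, and the Birc5 readings of NDF run from 6.06 to 10.09.

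The spread between NDF arrays was the strongest feature of the mitosis genes. The median SD over the 3 NDF arrays was 0.738 for mitosis genes, 0.361 for replication genes and 0.277 for G1/S genes, beside 0.206 for all genes. The NDF SD was over 1 for 5 of 19 mitosis genes (Birc5, Mki67, Ccna2, Top2a and Ccnb2) and 1 of 12 replication genes (Mcm5), beside 1.21% of all genes. The NDF range was over 1, or 2-fold, for 12 mitosis genes, 5 replication genes and 1 G1/S gene, Ccne2, beside 9.06% of all genes. In CAF the median SD was 0.550 for mitosis, 0.410 for replication and 0.419 for G1/S genes, beside 0.348 for all genes. The NDF SD exceeded the CAF SD for 12 of 19 mitosis genes, beside 28.0% of all genes.

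The mitosis genes varied together rather than singly. NDF 1 was the highest NDF array for 17 of 19 mitosis genes and 11 of 12 replication genes but 5 of 14 G1/S genes, beside 33.0% of all genes. NDF 2 was the lowest for 15 of 19 mitosis genes, beside 33.4% of all genes. The full order NDF 1, then NDF 3, then NDF 2 held for 14 of 19 mitosis genes, 5 of 12 replication genes and 1 of 14 G1/S genes, beside 18.4% of all genes. NDF 1 exceeded the mean of NDF 2 and NDF 3 by a median of 1.07 for mitosis genes, 0.53 for replication genes and 0.15 for G1/S genes, beside -0.02 over all genes. Genes that share arrays are not independent, so these counts describe 3 arrays.

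By the mean, though not by the median, the CAF arrays fell inside this range. Over the 19 mitosis genes the mean log2 level was 6.17, 4.79 and 5.30 on NDF 1, 2 and 3, and 5.82, 5.13 and 5.64 on CAF 1, 2 and 3. The median level was 5.64, 4.81 and 5.45 on NDF 1, 2 and 3. It was 5.47, 4.86 and 5.95 on CAF 1, 2 and 3, so CAF 3 stood highest by this measure. NDF 1 lay above all CAF arrays for 13 mitosis genes, beside 23.8% of all genes, and NDF 2 below all CAF arrays for 13, beside 18.6%. Within CAF, CAF 1 was above CAF 2 for all 19 mitosis genes and 11 of 12 replication genes, beside 60.7% of all genes. The groups thus had mitosis levels that interleave. NDF arrays held the extremes on both sides by the mean, and only the lower one by the median.

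**Figure D5:**
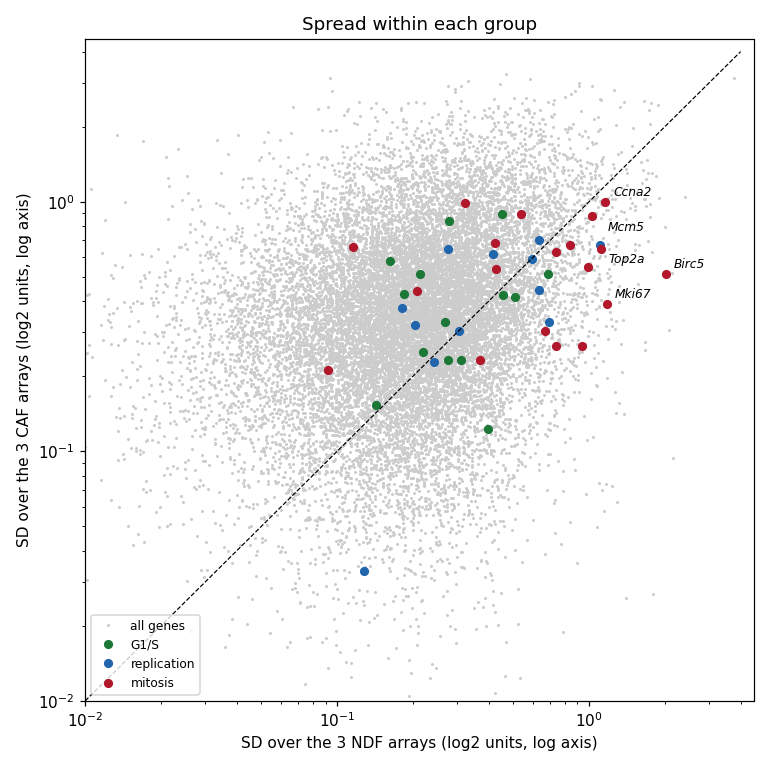
SD over the 3 NDF arrays (x axis) against SD over the 3 CAF arrays (y axis), both in log2 units on log axes, for all genes (grey) and the cell cycle genes by phase; the dashed line marks equal SDs, and 69 genes with an SD under 0.01 lie off the axes. Birc5 lies farthest right of the cell cycle genes at an NDF SD of 2.02 against 0.512 in CAF.

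The direction of the mitosis genes depended on which arrays entered. Their median difference was 0.46 without NDF 1, with 16 of 19 positive, and -0.25 without NDF 2, with 5 of 19 positive. It was 0.08 without NDF 3, -0.17 without CAF 1, 0.47 without CAF 2 and -0.03 without CAF 3. Within the Xist-high arrays it was -0.68, with 1 of 19 positive, and within the Xist-low arrays 0.68, with 13 of 19 positive, beside -0.06 and 0.06 over all genes. The replication genes had a median of -0.19 within the Xist-high and 0.49 within the Xist-low arrays, and the G1/S genes -0.36 and 0.15. With 1 array on one side of each such comparison these values have no test.

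Leaving out arrays left the replication and G1/S medians on their own side of 0. The replication median was 0.57 without NDF 1 and between 0.13 and 0.43 without any other single array. The G1/S median stayed between -0.29 and -0.09 over the 6 omissions. For Mcm6 the difference was 1.40 without NDF 1, 0.78 without NDF 2 and 1.20 without NDF 3, and for Cdt1 it was 1.15, 0.87 and 1.02.

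The probe sets of a gene did not always follow each other. Of 33 genes with several probe sets, 16 had differences of 1 sign. None of the 107 probe sets passed an adjusted p of 0.05 when all named probe sets were tested by limma; by unadjusted p under 0.05 there were 5 higher and 8 lower, and 5 of those 8 were of Ccnd2. Of the 20 mitosis probe sets that were not the brightest of their gene, 10 had NDF 1 highest and all of those 10 followed the order NDF 1, NDF 3, NDF 2. Of the 39 mitosis probe sets 28 read below the median probe set, 5.29. For Top2a the dimmer probe sets read 4.32 to 4.72 and 3.09 to 3.31 on the NDF arrays, without the high NDF 1 reading of the brightest.

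Genes from 4 related lists were read in the same way. None of 54 other mitosis genes was called and none had an unadjusted p under 0.05, with a median difference of 0.09. NDF 1 was highest for 39 of these 54, CAF 1 was above CAF 2 for 48, and the NDF SD was over 1 for 15. The 4 with the lowest p were Lmnb1, the nuclear lamin B1 (0.95), Incenp, a chromosomal passenger protein (0.56), Kif23, a motor of the central spindle (0.51), and Dlgap5, a spindle protein (0.33), with adjusted p of 0.624 to 0.689 by limma. Of the 221 genes of the array with an NDF SD over 1, 24 (10.9%) were on these cell cycle lists, which hold 1.04% of all genes, and 53.4% had NDF 1 highest. The list of other mitosis genes had 56 entries, of which 54 were matched. Sgo1, entered under its older symbol Sgol1, and Sgol2a were not matched, so the list counts leave them out.

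Of 40 other replication genes none was called and 2 had an unadjusted p under 0.05, both higher, beside 4.93% of all genes that were higher at that p, so the count is near the background. Their median was -0.02. NDF 1 was highest for 19 of the 40 and NDF 2 for 18, with a median of NDF 1 minus NDF 2 of -0.01, against 11 of the 12 replication members with NDF 1 highest. CAF 1 was above CAF 2 for 33. The 2 genes were the kinase Cdc7 (7.29, 8.05 and 6.81 in NDF; 8.12, 8.49 and 9.53 in CAF; difference 1.33, SE 0.46) and its activator Dbf4 (6.19, 5.09 and 5.41; 6.79, 6.14 and 7.52; difference 1.25, SE 0.42), which together fire licensed origins. Cdc7 did not overlap between the groups and Dbf4 did, and their adjusted p were 0.429 and 0.421 by limma. The polymerase genes Pole and Pola2 followed at 0.76 and 0.43.

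Of 25 factors of the RB, E2F and DREAM pathway none was called, with a median of 0.12, and NDF 1 was highest for 9. Cdkn1c, the Cip/Kip inhibitor p57, read 7.64, 8.44 and 7.91 in NDF and 7.23, 6.50 and 6.70 in CAF, without overlap, a difference of -1.19 (SE 0.29, adjusted p 0.209 by limma). Cdk7, the kinase that activates other cyclin-dependent kinases, differed by -0.89 (SE 0.27) and E2f2, an E2F activator, by 1.77 (SE 0.66), with CAF 3 highest for E2f2 at 7.80. Rb1, the retinoblastoma gene, differed by 0.50 (SE 0.23).

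The growth arrest and p53 target genes were the one related list with called members. Of 26 measured, 2 were called higher in CAF, beside 0.489% of all genes. All CAF arrays lay above all NDF arrays for 6 of the 26 and below for 1, beside 6.78% and 8.66% of all genes. Btg2, an antiproliferative immediate early gene and p53 target, read 7.32, 6.89 and 7.36 in NDF and 9.48, 9.57 and 9.69 in CAF, a rise of 2.39 (SE 0.20, adjusted p 0.00998 by limma). Pmaip1, the p53 target Noxa that promotes apoptosis, read 4.32, 3.44 and 3.49 in NDF and 6.85, 7.73 and 8.72 in CAF, a rise of 4.02 (SE 0.49, adjusted p 0.0304). Leaving out any 1 of the NDF arrays ended both calls, with adjusted p of 0.0565 to 0.0674 for Btg2 and 0.105 to 0.167 for Pmaip1. Without CAF 2 the adjusted p of Pmaip1 was 0.0929, and with the Xist class as a block 0.0580, while Btg2 was called in both. A block for the replicate number ended both calls, at an adjusted p of 0.0659 for Btg2 and 0.120 for Pmaip1. Over all alternatives the rise of Btg2 was 2.10 to 2.496 and that of Pmaip1 3.48 to 4.47. Gadd45g, a growth arrest and stress gene, differed by 1.23 (SE 0.27, adjusted p 0.154) and Zmat3, a p53 target, by -0.62 (SE 0.18, adjusted p 0.302). The list's median was 0.11, its NDF SD was over 1 for no gene, and NDF 1 was highest for 8 of 26.

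Markers of other cells moved with the group and, in part, with the arrays. The sort marker Pdgfra differed by 0.08, and the mean level of 11 fibroblast markers was 11.93 to 12.14 in NDF and 11.70 to 12.07 in CAF; none was called, Col1a2 differed by -0.52 and Col3a1 by -0.20. Of 17 keratinocyte markers 12 lay without overlap above NDF in CAF, beside 6.78% of all genes, and 3 were called higher, beside 0.489%. Their mean level was 6.76 to 6.94 in NDF and 7.98 to 9.30 in CAF. The basal keratin Krt5 read 8.57, 8.52 and 8.60 in NDF and 10.92, 9.47 and 10.26 in CAF, and Krt6b and Krt6a rose by 6.60 and 5.05. As with the mitosis genes, CAF 1 was above CAF 2 for all 17, and unlike them the NDF mean was nearly level.

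Leukocyte and vessel markers were also higher in CAF. Over all genes, CAF lay above NDF without overlap for 6.78%, and 0.489% were called higher. The mean of 14 macrophage and pan-leukocyte markers was 4.75 to 5.47 in NDF and 6.98 to 8.27 in CAF, with 13 without overlap and 3 called; Ptprc (CD45) rose by 4.33, Tyrobp by 3.65 and Cd14 by 4.03. The mean of 8 neutrophil markers was 4.14 to 5.20 in NDF and 7.85 to 9.29 in CAF, with 7 without overlap and 3 called; S100a8 rose by 6.04, Clec4d by 6.47 and Trem1 by 4.14. For 7 T lymphocyte markers the mean was 4.20 to 4.36 and 5.46 to 6.72, with 5 without overlap and 2 called; Il7r rose by 4.48 and Cd3g by 2.38, and Cd3e differed by 4.05 with an adjusted p of 0.0783. For 10 endothelial markers it was 5.50 to 5.83 and 6.81 to 7.80, with 8 without overlap and 1 called; Lyve1 rose by 3.38, and Pecam1 and Flt1 differed by 1.53 and 2.37.

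Within NDF, the first array was the highest for some of these markers as well. The macrophage list averaged 5.47, 4.75 and 4.98 and the neutrophil list 5.20, 4.14 and 4.53 on NDF 1, 2 and 3, the order of the mitosis genes. S100a8 read 7.93, 5.03 and 5.48 and Lyz2, a myeloid lysozyme, 7.78, 5.86 and 5.84. The keratinocyte list averaged 6.76, 6.78 and 6.94 and the T lymphocyte list 4.36, 4.25 and 4.20, with no such step. The endothelial list, at 5.83, 5.50 and 5.71, had the order of the mitosis genes by a smaller margin. Within CAF these lists did not keep that order. The macrophage list averaged 6.98, 7.41 and 8.27 and the neutrophil list 7.85, 9.29 and 8.46 on CAF 1, 2 and 3. The endothelial list averaged 6.93, 7.80 and 6.81 there. CAF 1 was above CAF 2 for 4 of 14 macrophage, 0 of 8 neutrophil and 2 of 10 endothelial markers, against all 19 mitosis genes. The part of these other cells in the levels of the cell cycle genes was not tested.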

How the data were processed

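RNA from 6 samples of sorted fibroblasts (3 NDF, 3 CAF) was hybridised to Affymetrix whole-genome mouse arrays. Per the submitters' processing notes GCOS and RMA were used, in versions not given in the sources used here. Deposited by the authors were log2 values, 1 per probe set and array. RMA corrects background, equalises the arrays' distributions and summarises each probe set. Total intensity per array is thereby removed, and differences of dim genes can be compressed. No scanner file or detection call was used, and the number of arrays limits the precision. Coordinates printed are those of the promoter table alone.

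Of 45101 probe sets 64 were controls, 34945 name 1 gene and 10092 several or none. A probe set naming Tyms with a pseudogene and one naming Foxm1 with other genes were thereby left out. Of the named probe sets 34741 matched a RefSeq table (GRCm38.p6) by gene identifier, and 0 symbols changed. Each gene was read from its brightest probe set (highest mean of all arrays), which gave 18193 genes. Group differences were fitted with limma 3.58.1 in R 4.3.3 (lmFit and eBayes, constant prior variance, two-sided, group as the only term). P-values were adjusted by Benjamini-Hochberg over all genes, with a threshold of 0.05. The prior had 2.79 degrees of freedom. The script was tested on simulated data. Figures were drawn with matplotlib 3.10.9.

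The members and all lists, which hold textbook genes, were chosen with earlier results of these data known. Values on every array are given for members past the threshold, for members without overlap at an unadjusted p under 0.05, and for the 3 largest and 3 most negative differences of each phase. Up to 4 genes with the lowest p come from each related list, and the defining gene and up to 2 others from each marker list. Ccnb2, Cdk1, Plk1, Aurkb, Top2a, Mcm3, Mcm5, Lyz2 and the genes of the closing section were added after their values were seen.

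Alternatives for the arrays were a replicate block, array quality weights, each array left out, and NDF 1 and CAF 3 left out together. Those for the scaling were quantile normalisation again, equal medians and cyclic loess. Those for the probe sets were filters at the 25th percentile and at the median, the mean of a gene's probe sets, and each tested alone. Probe sets with the name endings _x_at, _s_at or _a_at were also left out. A robust prior, a prior with an intensity trend and an adjusted p under 0.1 were also tried. The Xist class as a block was added after seeing the data.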

Additional observations from a re-analysis of the deposited data

How the results depend on the processing

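The median difference of each phase had the opposite sign within 1 of the Xist classes, and that of the mitosis genes also when single arrays were left out, as given above, with the Xist class as a block (-0.03) and over every probe set on its own (-0.0026). Among the 45 genes, 18 kept the sign of their difference in every alternative that held them, and 27 changed it in at least 1. There were 19 alternatives, and some genes were dropped from 1 or more of them by a filter or the choice of probe sets. The cause of these changes was not tested. With array quality weights, which gave CAF 3 the lowest weight at 0.167, 1 member was called higher (Cdt1, 1.48, adjusted p 0.0390 by limma) and 1 lower (Ccnd2, -1.11, adjusted p 0.0432). No other alternative called a member. Cdk2 turned to -0.063 (adjusted p 0.970 by limma) when probe sets with the name endings _x_at, _s_at or _a_at were left out. There a far dimmer probe set stands for the gene.

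On the related lists 2 genes were called higher. This became 0 with the replicate block, 1 with the Xist class as a block, and 0 to 2 when single arrays were left out. Over all genes 89 were called higher and 5 lower. The counts were 20 and 0 with the replicate block, 135 and 20 with an intensity trend, 343 and 95 with array quality weights and 171 and 27 at an adjusted p under 0.1. Those called lower were 14 with equal array medians, 17 with the mean of probe sets and 9 with the Xist class as a block. Leaving out single arrays gave 5 to 138 higher and 0 to 18 lower. Arrays with the same replicate number correlated in their deviations over all genes at -0.153, 0.108 and -0.0132. Those with different numbers correlated at -0.107 to 0.116. Such values cannot decide whether replicate numbers pair the samples. The replicate block called no member, and neither did the main fit.

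The median NDF SD of the mitosis genes was 0.426 with the mean of probe sets, and 0.328 to 0.993 when an NDF array was left out; that of the replication genes was 0.225 to 0.331. The lowest values were those without NDF 1. Dim signal limits the mitosis genes most, 9 of whose 19 main probe sets read below the median probe set.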

Other observations

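Some genes outside the cell cycle lists also read far higher on NDF 1 than on NDF 2 and NDF 3. The ranking that follows picks such genes by design, and none is given for NDF 2 or NDF 3. Over all genes NDF 1 was the highest NDF array for 33.0%. Ranked by how far NDF 1 lay above the higher of NDF 2 and NDF 3, the first 50 genes held 6 of the cell cycle lists. These were Cdca8, Cep55, Tk1, Mki67, Birc5 and Cdca3, and the lists hold 1.04% of all genes. Claspin (Clspn), a replication checkpoint gene on none of the lists, was also among the 50. So was shugoshin (Sgo1), which guards sister chromatid cohesion. Sgo1 was entered on the list of other mitosis genes under its older symbol, Sgol1, and was not matched, so the 6 leave it out. Clspn read 7.24, 3.76 and 5.18 on NDF 1, 2 and 3, and Sgo1 read 6.99, 3.34 and 4.84. Xist ranked first and Acta2, smooth muscle actin, second. Acta2 read 11.00, 7.25 and 7.30 in NDF and 9.07, 8.91 and 8.90 in CAF, so NDF 1 lay above and the other NDF arrays below all CAF arrays. Tagln, another smooth muscle cytoskeletal gene, read 9.29, 6.78 and 7.17 in NDF and 7.81, 7.48 and 7.87 in CAF. Tnn, the matrix protein tenascin-W, read 9.97, 6.64 and 7.22 in NDF. Hmga2, a chromatin protein of growing mesenchyme, read 8.24, 4.67 and 6.86 in NDF and 7.56, 7.57 and 7.52 in CAF. These genes were chosen after their values were seen, and their differences between the groups were not called.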
